A study of Mus musculus with 4 samples.

Results

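The EphA receptors are the receptor tyrosine kinases that mainly bind the membrane-anchored ephrin-A ligands. All 9 of the genes named here, *Epha1* to *Epha8* and *Epha10*, were found among the 55573 genes counted, by mapping their Ensembl identifiers to symbols of GENCODE M21. When a receptor meets an ephrin on a neighbouring cell, its cytoplasmic kinase is switched on and signals to the actin cytoskeleton, which most often makes a growth cone or a migrating cell withdraw. In the embryonic forebrain this repulsion keeps migrating interneurons on their routes. EPHA4, which also binds ephrin-B ligands, is the member best known for this in interneurons of the basal telencephalon. EPHA10 differs from the others in having a kinase domain without catalytic activity.

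RNA was measured in tdTomato-positive cells of the embryonic mouse brain at E16, where the day of insemination was counted as E1. Both genotypes carried *Hmx3-Cre* and the tdTomato reporter, so that the reporter marked cells with a history of *Hmx3* expression. In the *Dnmt1* KO group, Cre removed exons 4 and 5 of the floxed *Dnmt1* gene (*Dnmt1* loxP2), which joins exon 3 to exon 6 out of frame, and the *Dnmt1* WT group served as the control. There were 2 WT and 2 KO libraries, from pools of 12 WT and 6 KO embryos. The labels name the basal telencephalon as the tissue and the paper the preoptic area (POA). Biological replicates are given in the design text and technical duplicates in the paper's methods. The p-values below therefore describe the spread between libraries, which may be technical. Total counts ranged from 8075102 to 9995968 per library, so that 3 counts corresponded to 0.294 to 0.372 CPM, the read count relative to the TMM-scaled library size. WT 1 stood apart, since mitochondrial rRNA made up 8.66% of it and 1.51% to 2.32% of the other libraries. *Dnmt1* itself stood at 385 and 446 CPM in WT against 283 and 281 CPM in KO (log2 fold change -0.56, edgeR adjusted p = 0.0511, and 0.00107 to 0.151 over 8 alternative fits). Its counts cover the whole gene and not only the deleted exons. The counts of the ventral forebrain genes *Gad2*, *Dlx1* and *Hmx3* were high in every library (at least 1508, 4680 and 604), which are defining genes of the labelled *Hmx3*-derived interneurons.

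The main result on the EphA receptors was that the 5 most abundant of them, *Epha3*, *Epha4*, *Epha5*, *Epha6* and *Epha7*, had lower levels in both KO libraries than in both WT libraries, by 0.27 to 0.65 on the log2 scale, but none passed the test over all genes. Of the 9 genes, 8 were abundant enough to be tested, and *Epha10* was not. *Epha2* passed the filter on low counts only through the KO libraries, where it is high, so its place among the tested genes is no support for a difference. At an edgeR adjusted p under 0.05, 0 of these 8 were lower and 0 were higher in KO, while 7.90% of the 16832 genes tested passed, 0.570% as lower and 7.33% as higher. At an unadjusted p under 0.05, 4 receptors were lower (*Epha3*, *Epha5*, *Epha6* and *Epha7*), where 8.01% of all tested genes were, and 1 was higher (*Epha2*), where 14.6% were. The number lower at this unadjusted level was 0 with library size only, 2 with a length and GC correction and 1 when a replicate block was added to it, and it was 5 without a filter. It was 0 without KO 1 and 0 without KO 2, against 4 without WT 1 and 5 without WT 2. DESeq2 called 0 of the receptors at an adjusted p under 0.05, beside 1.47% of all genes lower, and found 3 receptors lower at an unadjusted p under 0.05. When the replicate number entered the fit as a block, 1 receptor, *Epha3*, was called lower (adjusted p = 0.0355), beside 3.68% of all genes. After a correction for length and GC, 0 were called lower without and 0 with the block, beside 5.16% and 4.72% of all genes. Log2 fold changes were negative for 7 of the 8 receptors and for 52.4% of all genes. In 5 of the 8 tested receptors the KO levels were both under the lower WT level, which held for 25.2% of all tested genes. In *Epha2*, admitted through its KO counts, they were both over the higher WT level, which held for 28.3%. The median log2 fold change was -0.45 over the 8 receptors and -0.03 over all tested genes, and -0.22 and 0.02 with the length and GC correction. In sorted bulk RNA, fewer cells carrying a receptor and less RNA per cell cannot be told apart.

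**Figure D1:**
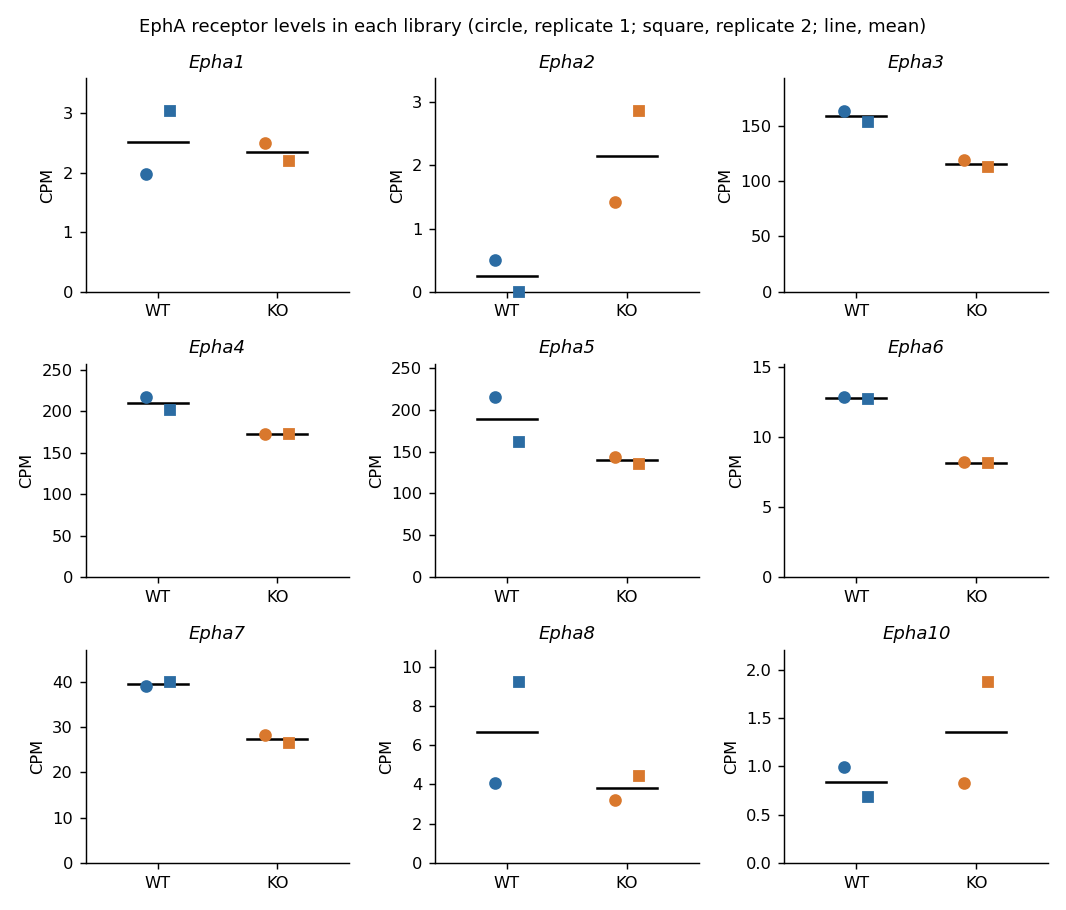
Levels of the 9 EphA receptor genes in CPM (y axis, starting at 0 in each panel) in the WT and KO libraries. Circles are replicate 1, squares are replicate 2 and lines are the means of 2 libraries. In *Epha3*, *Epha4*, *Epha5*, *Epha6* and *Epha7* both KO points lie under both WT points, in *Epha2* they lie above, and in *Epha1*, *Epha8* and *Epha10* the genotypes overlap.

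The members differ in position and size. On GRCm38, *Epha2*, *Epha7*, *Epha8* and *Epha10* lie on chromosome 4, *Epha3* and *Epha6* on chromosome 16, and *Epha4*, *Epha5* and *Epha1* on chromosomes 1, 5 and 6. *Epha6* spans 952 kb (59653483 to 60605531, minus strand), *Epha5* 363 kb (84054761 to 84417382, minus strand) and *Epha3* 321 kb (63543534 to 63864175, minus strand). *Epha7* spans 154 kb (28813131 to 28967499, plus strand) and *Epha4* 148 kb (77367185 to 77515088, minus strand). These 5 genes with lower KO levels thus have the 5 longest genomic spans of the family. The other 4 are compact, with 36.9 kb for *Epha10* (124880899 to 124917800, plus strand), 28.1 kb for *Epha2* (141301240 to 141329384, plus strand), 27.4 kb for *Epha8* (136929419 to 136956816, minus strand) and 14.8 kb for *Epha1* (42358487 to 42373268, minus strand). The same split appeared in the base composition of their transcripts. The GC content was 43.2% to 47.7% in the 5 long genes and 55.0% to 61.3% in the 4 compact ones. The split did not hold for merged exon length, with 7204 bases in *Epha10* and 5289 in *Epha6*. The length and GC correction used this exon length and not the span. Exons of another gene on the opposite strand overlap 6.01% of the exonic bases of *Epha1* (the gene is *Zyx*), 2.02% of those of *Epha6* and 1.1% of those of *Epha10*. Whether the counting used strand is not given in the sources used here, so that reads there cannot be assigned.

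DNMT1 copies methylation at CpG dinucleotides, and the promoters of 4 members are therefore shown with each CG in capitals: the most abundant receptor, the one with the largest change among the 5 with lower KO levels, the one with higher KO levels, and the one with the densest CpG promoter. Each is the stretch of 250 bases before the RefSeq gene start (GRCm38.p6), written 5′ to 3′ on the strand of the gene. They are chr1:77515089-77515338 on the minus strand for *Epha4*, chr16:60605532-60605781 on the minus strand for *Epha6*, chr4:141300971-141301220 on the plus strand for *Epha2* and chr4:136956817-136957066 on the minus strand for *Epha8*.
Epha4: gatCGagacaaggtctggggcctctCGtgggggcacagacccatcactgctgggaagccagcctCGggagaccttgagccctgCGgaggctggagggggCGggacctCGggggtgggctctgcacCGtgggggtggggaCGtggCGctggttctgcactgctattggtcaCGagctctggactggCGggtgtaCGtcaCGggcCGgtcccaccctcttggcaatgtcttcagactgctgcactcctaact
Epha6: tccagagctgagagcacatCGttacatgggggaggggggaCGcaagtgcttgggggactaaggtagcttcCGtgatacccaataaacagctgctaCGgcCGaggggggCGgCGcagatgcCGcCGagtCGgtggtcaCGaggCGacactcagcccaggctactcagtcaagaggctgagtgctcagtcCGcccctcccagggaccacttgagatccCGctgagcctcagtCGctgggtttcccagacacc
Epha2: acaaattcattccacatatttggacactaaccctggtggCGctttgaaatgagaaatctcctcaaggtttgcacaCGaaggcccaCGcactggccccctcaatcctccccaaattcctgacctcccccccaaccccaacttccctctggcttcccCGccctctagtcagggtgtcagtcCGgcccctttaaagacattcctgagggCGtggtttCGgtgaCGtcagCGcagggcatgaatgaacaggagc
Epha8: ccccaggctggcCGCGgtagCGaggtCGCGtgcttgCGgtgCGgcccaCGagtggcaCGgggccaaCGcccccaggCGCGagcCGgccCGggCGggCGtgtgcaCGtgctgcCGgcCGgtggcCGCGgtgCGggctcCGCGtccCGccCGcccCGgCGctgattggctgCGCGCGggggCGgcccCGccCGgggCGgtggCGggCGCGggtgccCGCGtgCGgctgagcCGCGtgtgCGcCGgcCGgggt

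All 9 genes were matched to RefSeq promoters. The dinucleotide CG, which reads the same on both strands, occurred in each of them and in 92.1% of the 32841 promoters of this length, with a median of 6 per promoter. The window had 14 CG in *Epha4*, 15 in *Epha6*, 16 in *Epha3*, 20 in *Epha5* and, at the more upstream of the 2 starts listed for it, 25 in *Epha7*. It had 9 in *Epha1* and in *Epha2*, 17 in *Epha10* and 46 in *Epha8*. *Epha1* and *Epha2* thus had the fewest of the family, although 59.7% of all promoters hold fewer still, and 99.7% of all promoters hold fewer than *Epha8*. These counts describe the sequence, and methylation was not analysed here.

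Compared per exon length, as CPM per kb of exon, the receptors fell into an order that was almost the same in the 4 libraries. *Epha4* was highest, with 27.0 and 24.9 CPM per kb in WT and 21.5 in both KO libraries. *Epha3* followed with a mean of 15.8 over the 4 libraries (12.9 to 18.8), and *Epha5* with 9.80 (8.05 to 12.9). These were followed by *Epha7* with 3.39 (2.69 to 4.04), *Epha6* with 1.99 (1.54 to 2.44) and *Epha8* with 1.11 (0.681 to 1.95). Down to this point, and from *Epha8* to *Epha1*, each receptor was above the next one in 4 of 4 libraries and did not overlap with it within a genotype. *Epha1*, with 0.619 CPM per kb (0.506 to 0.773), was above *Epha2* in 3 of 4 libraries, and *Epha2* was above *Epha10* in 2 of 4. *Epha1* did not overlap with *Epha10* (0.0952 to 0.26), so that only the place of *Epha2* among these 3 was not settled beyond the spread. The length used is that of all annotated exons merged, 3928 bases in *Epha1* and 16739 bases in *Epha5*, and a shorter transcript in use would have a higher level per kb.

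**Figure D2:**
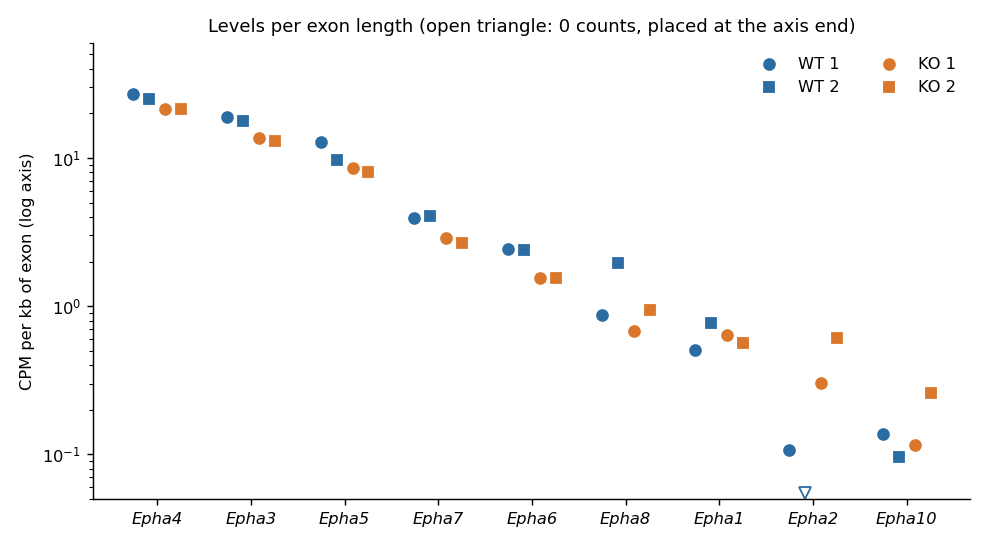
Levels of the EphA receptors in CPM per kb of merged exon (y axis, logarithmic) in each library, ordered by the mean over the 4 libraries. Blue points are WT and orange points KO, and the open triangle at the lower end stands for 0 counts of *Epha2* in WT 2. The step from *Epha5* (mean 9.80) to *Epha7* (mean 3.39) separates 3 high receptors from the others.

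The shares of the members in the family moved by a few percentage points. *Epha4* made up 40.5% of the summed EphA level per kb in both WT libraries and 43.0% and 43.8% in KO. *Epha3* made up 28.1% and 28.7% in WT and 27.4% and 26.4% in KO. For *Epha5* the shares were 19.3% and 15.7% in WT and 17.2% and 16.4% in KO. The 5 receptors *Epha3* to *Epha7* together held 95.2% to 97.6% in every library. The summed level of all 9 was 66.7 and 61.6 CPM per kb in WT and 49.9 and 49.1 CPM per kb in KO, so that the KO mean was 0.772 of the WT mean. That of the 5 EphB receptors, summed the same way, was 57.8 and 63.5 in WT and 58.7 and 64.3 in KO, and the genotypes overlapped.

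For *Epha4*, the receptor for both ephrin classes, 1754 and 2051 reads were counted in the WT libraries, against 1455 and 1573 in the KO libraries. Its mean was 209 ± 11.9 CPM for WT (SD, n = 2) and 173 ± 0.184 CPM for KO (SD, n = 2). KO differed from WT by -0.27 on the log2 scale (standard error 0.14, 95% interval -0.59 to 0.04, edgeR adjusted p = 0.273). The libraries did not overlap, but the difference was the smallest of the 5 and its interval held 0. The 3 tested genes whose pattern over the 4 libraries was nearest to that of *Epha4*, by Euclidean distance in log2 CPM centred on each gene's mean, were *Tmem39b* (0.018), *Trnp1* (0.023) and *Ift81* (0.025). With 4 libraries, this likeness is a description only.

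*Epha3*, a receptor with high affinity for ephrin-A5, was counted 1315 and 1568 times in WT, and 1001 and 1021 times in KO. The means were 158 ± 6.79 CPM (SD, n = 2) against 116 ± 4.64 CPM (SD, n = 2). Its difference of -0.45 on the log2 scale (standard error 0.14, 95% interval -0.77 to -0.13) had the lowest edgeR adjusted p of the family, 0.0984. *Epha5*, known from the mapping of axons by ephrin-A gradients, was at 216 and 162 CPM in WT, and at 144 and 135 CPM in KO. WT 2 was closer to the KO libraries than to WT 1. The log2 fold change came to -0.44 (standard error 0.17, 95% interval -0.83 to -0.04, edgeR adjusted p = 0.178). Without WT 1 it was -0.22, and without WT 2 it was -0.64. It was -0.47 without KO 1 and -0.38 without KO 2.

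*Epha7*, which like *Epha5* acts in axon mapping and also in cortical progenitor survival, gave 315 and 408 reads in WT, but 238 and 241 in KO. Its mean was 39.5 ± 0.618 CPM for WT (SD, n = 2), against 27.4 ± 1.24 CPM for KO (SD, n = 2), or -0.53 on the log2 scale (standard error 0.16, 95% interval -0.90 to -0.15, edgeR adjusted p = 0.101). *Epha6* gave 104 and 130 reads in WT, but 69 and 74 in KO. The means were 12.8 ± 0.122 CPM for WT (SD, n = 2), against 8.18 ± 0.0377 CPM for KO (SD, n = 2). Its fold change was the largest of the 5 receptors, -0.65 on the log2 scale (standard error 0.25, 95% interval -1.24 to -0.06, edgeR adjusted p = 0.181). An SD from 2 libraries is itself uncertain, and the standard error from edgeR, which draws on the spread of other genes, was wider for *Epha6* than for the more abundant *Epha3*, *Epha4*, *Epha5* and *Epha7*.

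**Figure D3:**
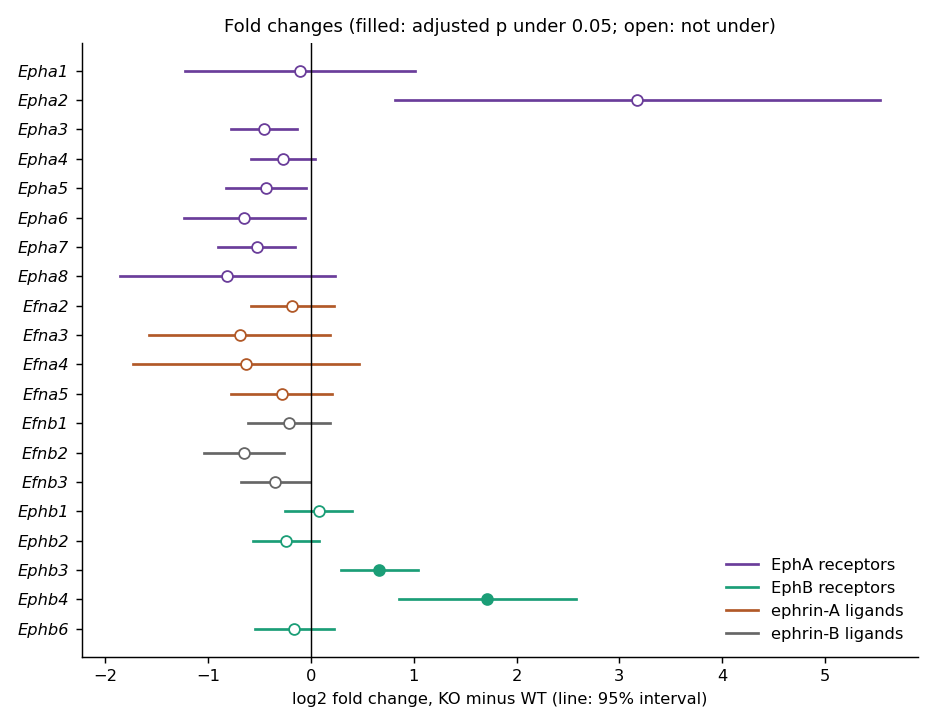
Log2 fold changes, KO minus WT (x axis), of the tested EphA receptors, ephrins and EphB receptors, with their 95% intervals from the edgeR fit as lines. Filled points passed an adjusted p of 0.05 and open points did not. *Ephb3* (0.67) and *Ephb4* (1.72) are the filled points, and the intervals of *Epha3*, *Epha5*, *Epha6* and *Epha7* lie below 0.

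The other 4 receptors had 0 to 94 counts per library. *Epha2*, best known from epithelia and vessels, was the member with higher KO levels, with 4 and 0 reads in WT, against 12 and 26 in KO. From the summed counts, 4 in WT and 38 in KO, its level was 9.92-fold higher in KO, with an exact 95% interval of 3.57 to 38.3 for counting error alone. This interval leaves out the spread between libraries, and *Epha2* entered the filtered fits only through its KO counts. Neither the interval nor those fits are therefore support for a difference. The fitted log2 fold change of 3.18 carried a standard error of 1.03 and an edgeR adjusted p of 0.113, and KO 2 held 26 of the 38 counts. It passed in 3 of 7 alternative fits that could test it (adjusted p 0.0102 to 0.121). It depended on single libraries, with a log2 fold change of 2.07 without WT 2 (adjusted p = 0.131), 2.57 without KO 2 (adjusted p = 0.697) and 3.58 without KO 1 (adjusted p = 0.118). Without WT 1 no WT reads of *Epha2* were left, and the fitted 7.32 (adjusted p = 0.00178) is no bound. *Epha8*, a neural receptor, gave 33 and 94 reads in WT, against 27 and 40 in KO, and the genotypes overlapped, with WT 2 apart from the rest. The log2 fold change of *Epha8* was -0.81 (standard error 0.46, edgeR adjusted p = 0.332), and it was -0.11 without WT 2 and -1.27 without WT 1. *Epha1*, an epithelial receptor, gave 16 and 31 reads in WT, against 21 and 20 in KO. It had a log2 fold change of -0.11 (95% interval -1.23 to 1.01, edgeR adjusted p = 0.925). *Epha10*, with 8 and 7 reads in WT, against 7 and 17 in KO, was tested only in fits with another filter or fewer libraries, and without a filter KO differed from WT by 0.70 on the log2 scale (edgeR adjusted p = 0.768). A difference of *Epha1* within its interval was not detectable at this depth. For *Epha8* the ratio of summed counts, 0.551, had a counting interval of 0.403 to 0.746, which does not hold 1, while the fitted interval of -1.86 to 0.23 on the log2 scale, which includes the spread between libraries, held 0.

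Markers of several cell types also differed between the genotypes. Their counts stand beside 0.570% of all tested genes called lower, 7.33% called higher, 8.01% lower and 14.6% higher at an unadjusted p under 0.05, and 25.2% with both KO levels under both WT levels. The pan-neuronal genes, 12 in number, summed to 7098 and 6521 CPM in WT and 4852 and 4823 CPM in KO, and 3 of them, *Syt1*, *Stmn2* and *Elavl4*, were lower at an edgeR adjusted p under 0.05 (9 at an unadjusted p under 0.05, and 10 with both KO levels under both WT levels). Of 11 GABAergic and ventral forebrain genes, 0 passed in either direction (2 were lower at an unadjusted p under 0.05), and their sum was 1606 and 1460 CPM in WT and 1251 and 1381 CPM in KO. Of the 5 glutamatergic genes, 2 were lower, *Neurod2* and *Neurod6*. At an unadjusted p under 0.05, 4 were lower, and 5 had both KO levels under both WT levels. The 5 genes summed to 409 and 382 CPM in WT and 205 and 231 CPM in KO. *Neurod2* had at least 631 counts in every library of these cells labelled as interneurons. All 10 astrocyte genes were higher, and their sum was 344 to 353 CPM in WT and 4009 to 4230 CPM in KO. *Gfap*, the astrocyte filament gene, had 0 counts in both WT libraries. Like *Epha2*, it entered the test only through its KO counts, as did *Aqp4*, *Mobp*, *Mal* and *Acta2* among the genes counted here. Of the oligodendrocyte genes 7 of 8 were higher (130 to 154 CPM in WT, 597 to 625 CPM in KO), and of the mural cell genes 6 of 7 (49.2 to 53.8 CPM in WT, 398 to 409 CPM in KO), with *Acta2* at 0 in both WT libraries. Of 5 oligodendrocyte precursor genes 1 was called higher (4 at an unadjusted p under 0.05), of 8 radial glia genes 1 (4 unadjusted) and of 6 tested microglia genes 1 (4 unadjusted). Of 3 tested choroid plexus genes 1, *Ttr*, was called lower (1 unadjusted), and of 5 erythroid genes 1, *Hbb-bs* (3 unadjusted). Of the 6 endothelial genes tested, 0 passed (1 was higher and 2 were lower at an unadjusted p under 0.05). The part of these shifts in the receptor levels was not tested.

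**Figure D4:**
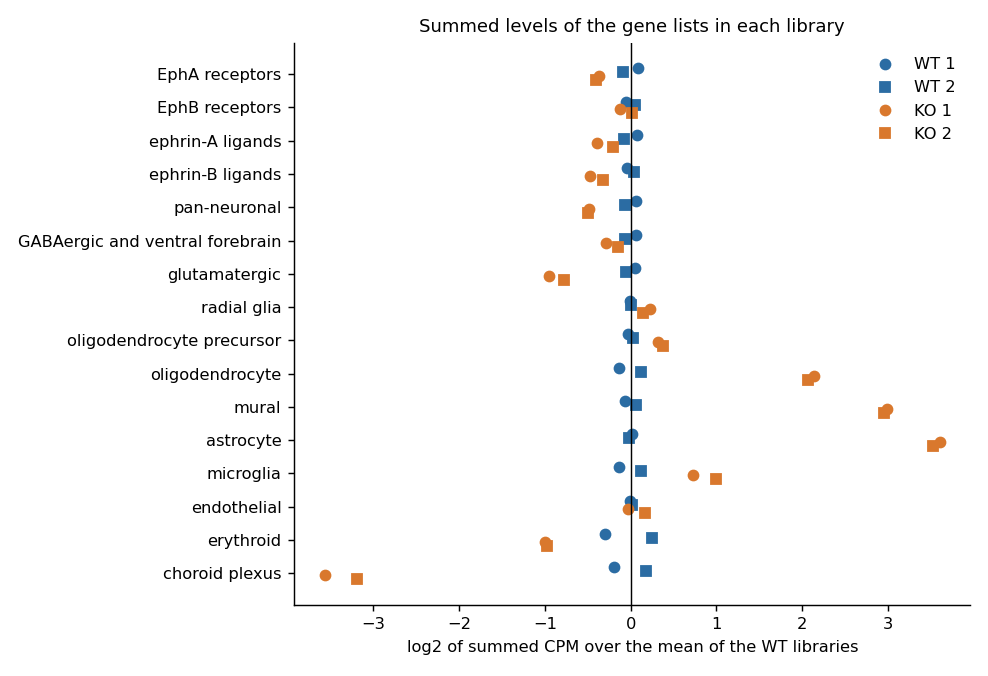
Summed CPM of each gene list in each library, as log2 of the ratio to the mean of the WT libraries (x axis). Blue points are WT and orange points KO, circles replicate 1 and squares replicate 2. The EphA sum lies lower in KO (466 and 480 CPM, against 582 and 656 CPM), beside lower sums of the ephrin and neuronal lists and much higher sums of the astrocyte, mural and oligodendrocyte lists.

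Set against the neuronal sum, 3 of the 5 abundant EphA receptors no longer separated the genotypes. Per 1000 CPM of the pan-neuronal sum, *Epha3* had 23.0 and 23.6 CPM in WT and 24.5 and 23.3 CPM in KO. *Epha5* had 30.4 and 24.8 in WT and 29.7 and 27.9 in KO, and *Epha7* had 5.51 and 6.13 in WT and 5.83 and 5.503 in KO. The genotypes overlapped in these 3. *Epha4* was then above WT in both KO libraries (30.7 and 30.8 against 35.7 and 35.9), and *Epha6* stayed below (1.82 and 1.95 against 1.69 in both). Per 1000 CPM of the GABAergic and ventral forebrain sum, *Epha4* overlapped (136 and 138 in WT, 138 and 125 in KO), and so did *Epha5* (134 and 111 in WT, 115 and 97.6 in KO). *Epha3* (102 and 105 in WT, 95.1 and 81.4 in KO), *Epha6* (8.04 and 8.73 in WT, 6.56 and 5.90 in KO) and *Epha7* (24.4 and 27.4 in WT, 22.6 and 19.2 in KO) stayed lower in both KO libraries. The pan-neuronal and GABAergic lists thus gave different answers for *Epha3*, *Epha4* and *Epha7*, and no test was made on these ratios.

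Among the ligands, an edgeR adjusted p under 0.05 was reached by 0 of the 4 tested ephrin-A genes and 0 of the 3 ephrin-B genes (0 and 2 at an unadjusted p under 0.05, both of these lower), beside 0.570% of all tested genes called lower and 8.01% lower at the unadjusted level. All 7 had negative log2 fold changes, as did 52.4% of all tested genes. *Efna3* was at 7.45 and 6.76 CPM in WT, against 5.71 and 3.08 CPM in KO (-0.69 on the log2 scale, edgeR adjusted p = 0.326). *Efna4* was at 2.98 and 6.86 CPM in WT, against 2.97 and 3.41 CPM in KO, where the genotypes overlapped. Antisense genes share 14.1% of the exonic bases of *Efna3* and 10.5% of those of *Efna4*. *Efna5*, a main ligand of the EphA receptors in the forebrain, had 70.0 and 49.4 CPM in WT and 42.6 and 55.3 CPM in KO, and the genotypes overlapped. *Efna2* was at 30.7 and 36.4 CPM in WT, against 29.6 CPM in each KO library, and *Efna1*, with 2 to 12 counts, was not tested. Of the ligands that EPHA4 shares with the EphB receptors, *Efnb2* had 171 and 133 CPM in WT and 91.2 and 102 CPM in KO. Its difference of -0.65 on the log2 scale (standard error 0.17, edgeR adjusted p = 0.0566) was close to the threshold, and it passed in 6 of 8 alternative fits (adjusted p 0.00414 to 0.0835), DESeq2 among them. The log2 fold change of *Efnb2* was -0.561 without KO 1, -0.727 without KO 2, -0.468 without WT 1 and -0.835 without WT 2. Whether it passed depended on which genotype lost a library, since the spread then comes from the other pair alone. *Efnb1* was at 70.9 and 92.2 CPM in WT, against 66.8 and 73.8 CPM in KO, and the genotypes overlapped. *Efnb3*, the ephrin-B of the forebrain midline, had 355 and 409 CPM in WT and 284 and 316 CPM in KO (-0.35, edgeR adjusted p = 0.206).

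Of the 5 EphB receptors, which mainly bind ephrin-B ligands, 2 were higher in KO and 0 lower, beside 7.33% and 0.570% of all tested genes. *Ephb3* rose from 45.6 and 51.7 CPM in WT to 70.0 and 84.4 CPM in KO, or by 0.67 on the log2 scale (standard error 0.16, edgeR adjusted p = 0.0458). *Ephb4*, a receptor of the venous endothelium, rose from 2.23 and 4.02 CPM to 9.27 and 11.6 CPM (1.72, standard error 0.37, edgeR adjusted p = 0.0281). Both calls were made with all 4 libraries. They were not all kept without a KO library, where the spread comes from the WT pair alone. The log2 fold change of *Ephb3* was 0.805 without KO 1 and 0.529 without KO 2. That of *Ephb4* was 1.878 without KO 1 and 1.553 without KO 2. *Ephb1*, *Ephb2* and *Ephb6* had log2 fold changes between -0.24 and 0.07. The difference between the EphA and EphB genes was not tested.

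Downstream of the receptors, 1 gene was higher in KO and 0 lower in each of 2 lists, kinases with adaptors and proteases with phosphatases, beside 7.33% higher among all tested genes. Among 15 tested kinases and adaptors, *Inppl1*, whose product SHIP2 binds the cytoplasmic tail of EPHA2, was higher with 19.5 and 23.7 CPM in WT and 55.9 and 63.0 CPM in KO (1.46, edgeR adjusted p = 0.00156). Its reads are uncertain without strand, as an antisense gene shares 18.8% of its exonic length. Among 8 proteases and phosphatases, *Mmp9*, which encodes a secreted matrix protease, was higher (1.46, edgeR adjusted p = 0.0169). Its log2 fold change was 1.31 to 1.62 with a library left out, and the call was not kept without KO 1. *Ptpro*, whose phosphatase acts on Eph receptors, differed by -0.47 on the log2 scale (edgeR adjusted p = 0.0721), and *Adam10*, the protease that cleaves ephrin-A, by -0.36 (edgeR adjusted p = 0.532).

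**Figure D5:**
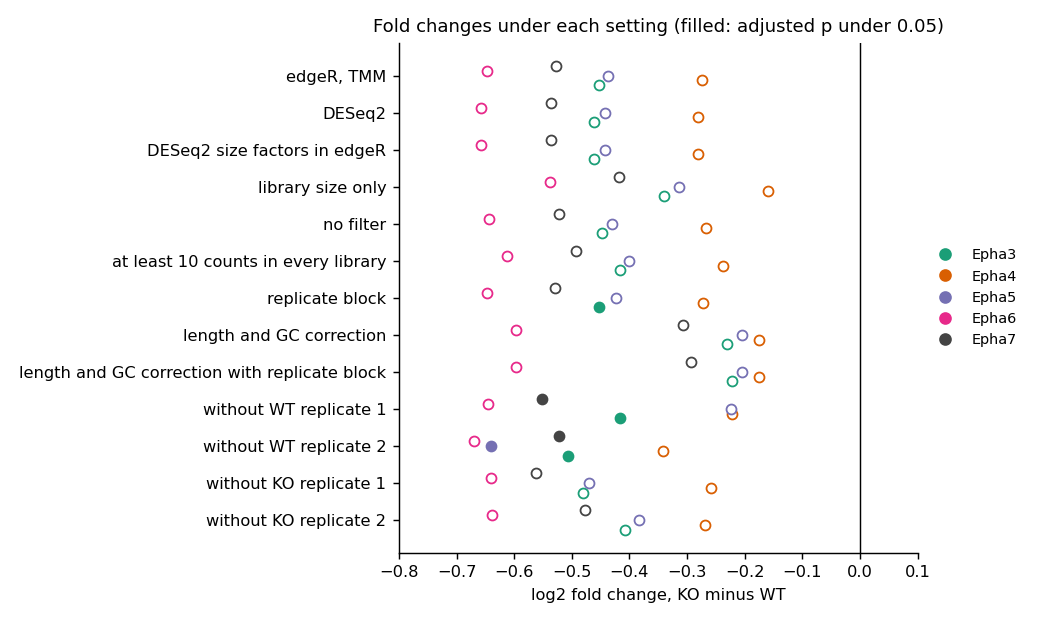
Log2 fold changes, KO minus WT (x axis), of the 5 abundant EphA receptors under each processing setting (y axis), where the first line is the fit reported above and the last 4 leave out a library each. Filled points passed an adjusted p of 0.05. All points lie below 0, *Epha3* is filled with the replicate block, and *Epha3*, *Epha5* and *Epha7* are filled in fits that leave out a WT library.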

How the data were processed

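RNA was sequenced from FACS-enriched tdTomato-positive cells in 4 libraries, 2 of each *Dnmt1* genotype. The deposited values are raw counts of reads for each Ensembl gene, which the authors did not normalize. The submitters' processing notes name CASAVA 1.8.2, STAR 2.5.2a, featureCounts 1.5.0-p1 and GRCm38 (mm10), while the annotation release, the strand setting and the handling of multi-mapped reads are not given in the sources used here. GENCODE M21 (GRCm38) held 55480 of the 55573 identifiers and gave symbols, positions, merged exon lengths and GC content.

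After filterByExpr, 16832 genes were left, and library sizes were scaled by TMM. The quasi-likelihood test of edgeR 4.0.16 (with limma 3.58.1 in R 4.3.3) compared KO with WT in a model of genotype alone. Benjamini-Hochberg adjustment ran over all tested genes, with a threshold of 0.05. Standard errors and 95% intervals were derived from the test statistic. Lists were described by counts and medians, without a set test. Intervals from counts cover counting error only. Some of the fits were also run on simulated counts with the same spread in both genotypes, unlike the WT and KO pairs here. Alternatives were DESeq2 1.42.0, 2 other normalizations, 2 other filters, a replicate block, a length and GC correction without and with that block, and each library left out in turn. The members, the 6 pathway lists and the 12 marker lists were chosen with earlier results of these data known, and the genes of 1 pathway list are not reported here. Named genes are all EphA, EphB and ephrin genes, the called genes with the largest increase and decrease of each other pathway list, and the 3 genes nearest in pattern to the most abundant EphA receptor. *Ptpro*, *Adam10* and the marker genes were named after their values were seen.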

Additional observations from a re-analysis of the deposited data

How the results depend on the processing

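The log2 fold changes of *Epha3*, *Epha4*, *Epha5*, *Epha6* and *Epha7* were negative in the 8 alternative fits with all libraries and in the 4 fits that leave out a library each. They were smallest with the length and GC correction or with library size only (*Epha3* -0.22, *Epha4* -0.16, *Epha5* -0.20, *Epha7* -0.29). The cause was not tested. Library size only moved the median of all genes from -0.03 to 0.08. *Epha1* ranged from -0.38 to 0.23 with a library left out, and was positive only without WT replicate 2.

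The number of EphA receptors lower in KO was 0 in all fits with 4 libraries except with the replicate block, where it was 1 (*Epha3*, adjusted p = 0.0355). It was 0 to 3 over the fits that leave out a library. It was 3 without WT replicate 1 (*Epha3*, *Epha7*, *Epha8*) and 3 without WT replicate 2 (*Epha3*, *Epha5*, *Epha7*). In these fits the spread comes from the KO pair alone, with a biological coefficient of variation of 0.103, against 0.234 in the WT pair, and a lone library is assumed to vary like the other genotype. The number higher in KO was 1 with library size only, without a filter and after the length and GC correction (*Epha2* each time), and 0 to 1 with a library left out. Without WT replicate 1, *Epha2* had no WT counts, and its fitted value is no bound.

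The pathway lists held 6 genes higher in KO in all 8 alternatives with 4 libraries and 3 to 6 with a library left out. The number lower was 0, and 3 with DESeq2, 1 with DESeq2's size factors, 4 without a filter, with the replicate block, and with the length and GC correction without or with the block. It was 0 to 12 with a library left out.

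Over all genes, 1233 were higher, and 2125 with the length and GC correction, 2051 with the block added. With a library left out the number was between 900 and 2578. Lower were 96, and 247 with DESeq2, 573 without a filter, 52 with at least 10 counts in every library, 619 with the replicate block, 868 with the correction and 795 with correction and block. With a library left out the number was 51 to 2180. The called genes were 92.8% higher, and 72.4% with the block, 71.0% with the correction and 75.8% without a filter. The share was 66.5% without WT replicate 1 and 48.2% without WT replicate 2, where more called genes were lower than higher. The deviations of same-numbered libraries had a correlation of 0.137 across genes, and no source ties the numbers to a shared litter or day.

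At these depths *Epha1*, *Epha2*, *Epha8* and *Epha10*, each with fewer than 100 counts per library, limit what can be said about the weakly expressed receptors.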
